A study of Mus musculus with 8 samples.

Results

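The mRNA levels of 10 transcription factor and immediate-early genes were followed in RAW264.7 cells, a mouse macrophage-like cell line, after treatment with recombinant FSTL1 (rFSTL1) or PBS. The genes were the 3 Jun genes (Jun, Junb and Jund), the 4 Fos genes (Fos, Fosb, Fosl1 and Fosl2), Atf3, Egr1 and Ier2, taken by gene symbol from the 22013 genes of the count table. All 10 were found and all 10 passed the expression filter that left 10748 genes to test. They were chosen by symbol with earlier results of the same comparison, the rFSTL1 and PBS levels of these libraries, already known. Their differences between the groups are therefore a description and not a test. The study treated the cells with rFSTL1, a secreted glycoprotein, at 100 ng/mL for 24 h, to ask how macrophages respond to it, and RNA was sequenced in 4 libraries with rFSTL1 and 4 with PBS. The labels give no other treatment and no genetic change in either group, and no time for PBS. The labels do not say whether the libraries of a group came from separate cultures, so p-values measure only the spread between these libraries, which may be technical.

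AP-1 is a dimer of basic leucine zipper (bZIP) proteins. Jun proteins pair with each other or with Fos proteins, while Fos proteins need a Jun-type partner to bind DNA. In macrophages the genes for several of these proteins belong to the immediate-early class, which is transcribed within minutes of a stimulus without new protein synthesis, through factors that MAP kinases phosphorylate. Their mRNAs are usually short-lived, so a measurement 24 h after addition of rFSTL1 gives the level long after such a first wave. Atf3 encodes a stress-induced bZIP protein that pairs with Jun proteins and often represses transcription, Egr1 encodes a zinc finger factor and Ier2 a nuclear protein of the same early class.

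The libraries held 15062023 to 20234477 estimated counts. The cells carried macrophage markers, and all 9 listed were tested, with a summed level of 4668 to 4813 CPM (counts scaled to the library size) under PBS and 4718 to 4895 CPM under rFSTL1. Of 12 markers of other cell types, 0 passed the filter, none exceeded 13 counts in a library, and Cd3e and Epcam were among those at 0 throughout. A pair of libraries stood apart. In rFSTL1 replicates 3 and 4, genes with GC-rich transcripts were higher and GC-poor genes lower than in the other libraries. Tested genes were split by GC into 5 groups of about equal size. In the group with the highest GC (2144 genes), the median of log2(CPM + 1), set against the PBS mean, was 0.12 in replicate 3 and 0.19 in replicate 4. In the group with the lowest GC it was -0.12 and -0.19. In the other 6 libraries it stayed between -0.04 and 0.04 in both groups. All 10 AP-1 and immediate-early genes had a GC content above the median of tested genes (49.4%), from 51.9% in Fos to 67.1% in Jund, and 7 lay above the 75th percentile. Each difference of the 10 genes is therefore given from all 8 libraries, after each library was corrected for its trend with transcript GC and length, and with rFSTL1 replicates 1 and 2 alone.

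**Figure D1:**
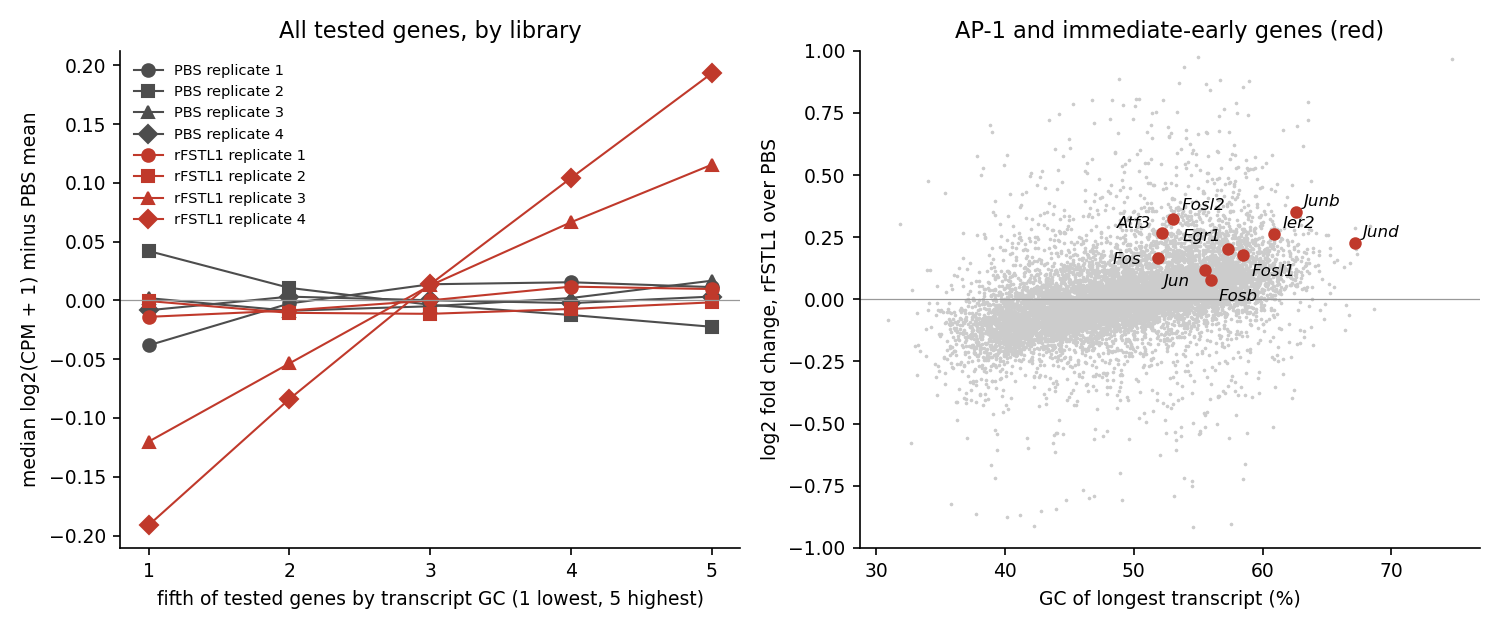
Left, median log2(CPM + 1) of tested genes minus the PBS mean (y axis) in 5 equal groups by transcript GC (x axis), with 1 line per library. Right, log2 fold change of rFSTL1 over PBS (y axis) against GC of the longest transcript in percent (x axis) for tested genes (grey) and the 10 AP-1 and immediate-early genes (red), where genes beyond 1 in either direction lie outside the axis. The lines of rFSTL1 replicates 3 and 4 climb to 0.12 and 0.19 at the highest GC while the other 6 stay near 0, and all red points lie in the GC-rich part.

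The start regions of these genes show what they share and where they differ. RefSeq promoter windows on GRCm38.p6 (250 bases before to 50 after the annotated start) were matched by symbol for 7 of the 10 genes, and those of Fosl1, Egr1 and Ier2 were not matched. On both strands the windows were searched for the AP-1 site TGANTCA, the Jun-type site TGACNTCA, the core of the cAMP response element TGACGT, the EGR site GCGNGGGCG and the CArG box bound by SRF, and on the forward strand for TATAAA. The core lies within the Jun-type site where N is G. Of all 32851 promoter windows, 7.81% held the AP-1 site, 8.83% the Jun-type site, 7.51% the core, 5.55% the EGR site, 1.63% the CArG box and 8.32% TATAAA. The 6 stretches printed here are those of the genes whose window held a match, among them Jun and Fos, which gave their families their names, and Junb, Fosl2 and Atf3, whose levels stand out in the results, with each match in capitals and the 250 bases ending just before the start.
Jun, upstream of the start, chr4:95052223-95052472, minus strand: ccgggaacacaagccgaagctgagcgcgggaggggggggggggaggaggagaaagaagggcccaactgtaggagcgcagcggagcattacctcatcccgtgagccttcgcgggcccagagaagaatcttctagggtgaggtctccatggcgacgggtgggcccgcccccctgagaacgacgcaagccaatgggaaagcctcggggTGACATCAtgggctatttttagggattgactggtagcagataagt
Junb, upstream of the start, chr8:84978749-84978998, minus strand: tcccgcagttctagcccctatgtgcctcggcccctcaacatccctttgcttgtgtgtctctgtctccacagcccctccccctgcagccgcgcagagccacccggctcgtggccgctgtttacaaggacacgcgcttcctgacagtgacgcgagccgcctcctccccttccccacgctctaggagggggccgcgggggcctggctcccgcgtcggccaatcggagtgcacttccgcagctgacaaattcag
Fos, upstream of the start, chr12:85473640-85473889, plus strand: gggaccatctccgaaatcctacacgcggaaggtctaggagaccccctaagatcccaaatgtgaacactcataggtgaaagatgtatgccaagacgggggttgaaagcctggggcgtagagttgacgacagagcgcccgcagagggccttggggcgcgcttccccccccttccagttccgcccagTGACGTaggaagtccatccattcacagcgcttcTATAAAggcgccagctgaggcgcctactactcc
Fosb, upstream of the start, chr7:19310046-19310295, minus strand: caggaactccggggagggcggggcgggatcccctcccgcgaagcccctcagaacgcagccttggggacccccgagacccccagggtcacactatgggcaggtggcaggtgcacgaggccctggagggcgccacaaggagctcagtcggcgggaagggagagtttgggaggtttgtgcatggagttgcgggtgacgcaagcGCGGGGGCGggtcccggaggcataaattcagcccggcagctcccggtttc
Fosl2, upstream of the start, chr5:32136222-32136471, plus strand: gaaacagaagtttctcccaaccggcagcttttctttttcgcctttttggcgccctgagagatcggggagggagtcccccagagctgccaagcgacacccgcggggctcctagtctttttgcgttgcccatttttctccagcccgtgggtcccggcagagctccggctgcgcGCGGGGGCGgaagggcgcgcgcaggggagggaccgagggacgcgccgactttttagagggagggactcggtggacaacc
Atf3, upstream of the start, chr1:191183334-191183583, minus strand: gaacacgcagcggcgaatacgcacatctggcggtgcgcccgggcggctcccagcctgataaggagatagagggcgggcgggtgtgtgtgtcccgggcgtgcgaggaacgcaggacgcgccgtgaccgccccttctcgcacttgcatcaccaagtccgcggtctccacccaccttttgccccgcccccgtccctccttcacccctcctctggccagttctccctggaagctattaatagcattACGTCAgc
The Jun stretch held the Jun-type site 45 bases before the start, and Fos held the core element 66 bases and TATAAA 33 bases before it. Atf3 held the core element on the opposite strand 8 bases before the start, and Fosl2 an EGR site 79 bases before it. Junb held none of these in the stretch shown, and its TATAAA began at the annotated start itself. Fosb had an EGR site 50 bases before its start, and Jund, not printed, had no match. No window of the 7 held the AP-1 site or the CArG box. A match describes letters, and its absence refers to this window only.

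Per kilobase of the longest transcript, the 10 genes spanned a wide range of levels in PBS-treated cells. Atf3 (44.5 ± 4.24 CPM per kilobase, SD, n = 4), Jun (42.5 ± 0.71) and Junb (42.4 ± 1.86) were the highest, and the ranges of neighbours in this order overlapped. Jund followed at 17.4 ± 1.19 CPM per kilobase, then Ier2 (9.16 ± 0.786), Fosl2 (5.82 ± 0.562), Egr1 (4.28 ± 0.437), Fos (3.02 ± 0.375), Fosl1 (1.24 ± 0.36) and Fosb (0.152 ± 0.0497). From Junb downward, the PBS range of each gene lay clear of that of the next. The 3 Jun genes together reached 102 ± 3.37 CPM per kilobase under PBS and the 4 Fos genes 10.2 ± 0.844, so the level of the Jun genes was 10.03 ± 0.484 times that of the Fos genes (SD, n = 4). Under rFSTL1 the sums were 121 ± 8.29 and 12.3 ± 0.59 CPM per kilobase and the ratio was 9.85 ± 1.12. The 2 groups' ratios overlapped. In bulk RNA, more cells that carry a transcript and more of it per cell cannot be told apart.

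Under rFSTL1, all 10 genes had a higher mean than under PBS, against 52% of all tested genes with a positive log2 fold change. Junb was the 1 gene of the 10 called at an adjusted p under 0.05 by edgeR, where 0.344% of all tested genes were called and 0.326% were called higher. In Junb, Jun and Fosl2, all 4 rFSTL1 libraries lay above all 4 PBS libraries, as they did in 4.63% of tested genes. Since the genes were named with this comparison known, nothing is read from these shares. Junb, Fosl2 and Atf3 had a 95% interval above 0 in each of the 3 fits, whereas Jund and Ier2 were at the PBS level in rFSTL1 replicates 1 and 2. The 3 fits share libraries, and the corrected fit and that on replicates 1 and 2 were chosen after seeing the data. They are therefore not independent tests. The median log2 fold change of the 10 genes was 0.21 with all 8 libraries, 0.12 after the GC and length correction and 0.08 with rFSTL1 replicates 1 and 2 alone. The median of all tested genes was 0.01, -0.01 and -0.00 in the same 3 fits.

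**Figure D2:**
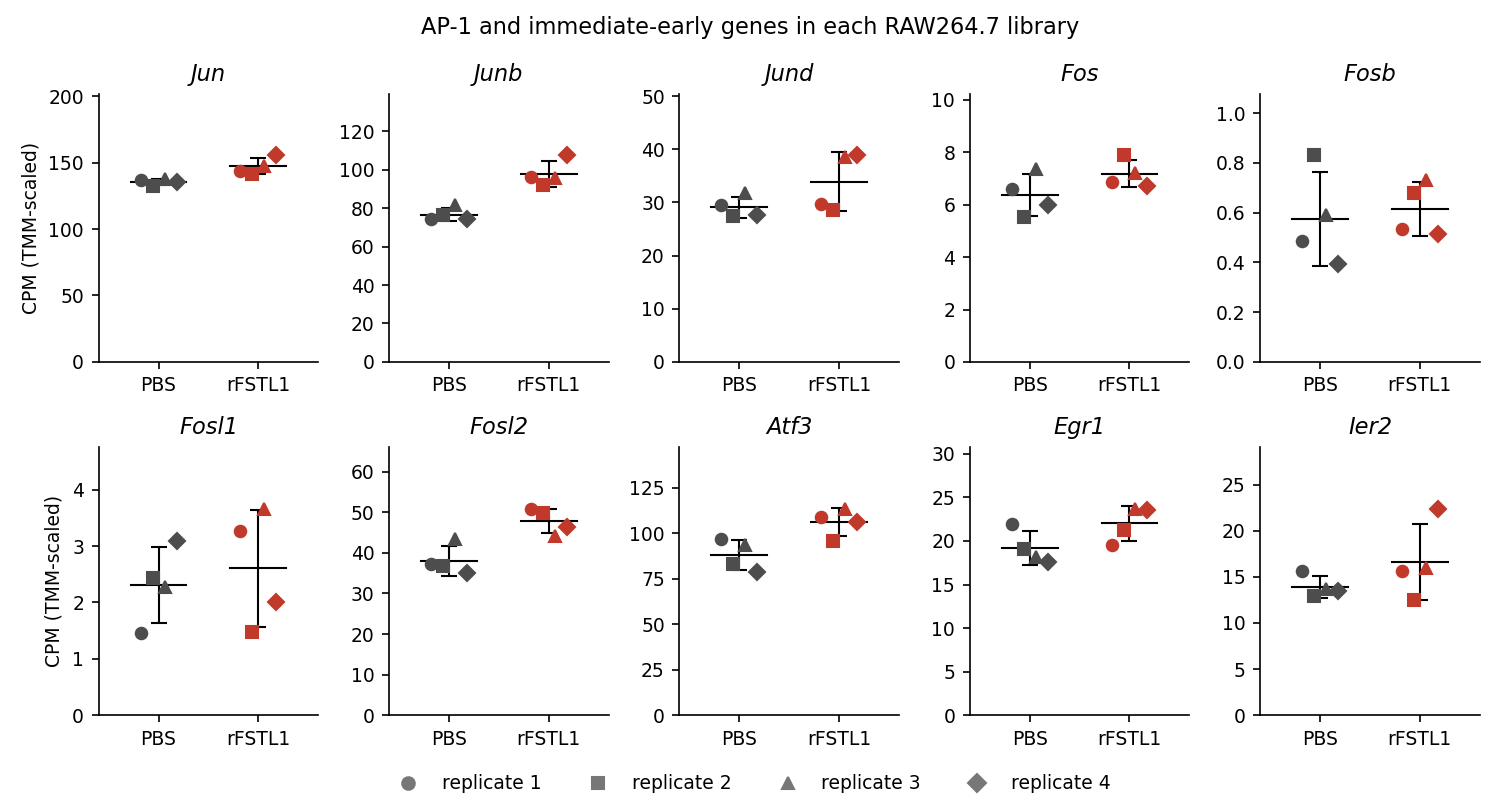
CPM (y axis, from 0) of each of the 10 genes in the PBS and rFSTL1 libraries (x axis), with 1 symbol per replicate, bars at the mean and whiskers of 1 SD (n = 4). The rFSTL1 points of Jun, Junb and Fosl2 lie above all PBS points, and in Jund replicates 3 and 4 (38.5 and 38.9 CPM) stand apart from replicates 1 and 2 (29.7 and 28.6 CPM).

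Among the Jun genes, Junb showed the clearest difference. Junb (ENSMUSG00000052837) encodes a Jun protein that activates some AP-1 targets and competes with c-Jun at others. Its level was 74.3, 76.3, 81.5 and 74.4 CPM in PBS replicates 1 to 4 and 95.9, 92.1, 95.8 and 107 CPM in rFSTL1 replicates 1 to 4. The groups did not overlap, and the lowest rFSTL1 library was above the highest PBS library by more than the whole PBS range. The mean was 76.7 ± 3.37 CPM under PBS and 97.8 ± 6.64 CPM under rFSTL1 (SD, n = 4), so the log2 fold change was 0.35 (standard error 0.05, 95% interval 0.24 to 0.47) or 1.28-fold. It was 0.22 (0.13 to 0.32) after correction for GC and length and 0.29 (0.18 to 0.40) with rFSTL1 replicates 1 and 2 alone, and Junb was called in both fits. The call was lost without PBS replicate 2 (log2 fold change 0.35) and without PBS replicate 4 (0.33). In GENCODE M21, an exon of Prdx2 on the opposite strand overlaps Junb, and whether counting used strand is not given in the sources used here. Prdx2, which encodes a peroxiredoxin, had 132 ± 4.51 CPM under PBS and 130 ± 5.84 CPM under rFSTL1 (SD, n = 4).

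Jun (ENSMUSG00000052684), which encodes c-Jun, the partner of most Fos proteins, had 137, 133, 138 and 136 CPM in PBS replicates 1 to 4 and 144, 142, 148 and 155 CPM in rFSTL1 replicates 1 to 4. Every rFSTL1 library was above every PBS library, by a small margin. The log2 fold change was 0.12 (standard error 0.04, 95% interval 0.03 to 0.21), and the interval took in 0 after the GC and length correction (0.05, -0.02 to 0.11) and in replicates 1 and 2 alone (0.07, -0.01 to 0.16). Junb therefore stood higher relative to Jun. Per kilobase, the ratio of Junb to Jun was 0.996 ± 0.0395 under PBS, with 0.959 to 1.04 in single libraries, and 1.17 ± 0.035 under rFSTL1 (SD, n = 4), with 1.14 to 1.22. It was 1.17 and 1.15 in rFSTL1 replicates 1 and 2, the rFSTL1 libraries without the GC trend. Junb made up 41.4% ± 0.796 of the summed Jun genes per kilobase under PBS and 44.9% ± 1.08 under rFSTL1 (SD, n = 4).

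Jund (ENSMUSG00000071076) encodes the Jun protein that is usually the most constant and that restrains growth in many cells. It had 29.6, 27.5, 31.7 and 27.6 CPM in PBS replicates 1 to 4 and 29.7, 28.6, 38.5 and 38.9 CPM in rFSTL1 replicates 1 to 4. Replicates 1 and 2 lay within the PBS range, and replicates 3 and 4, those with the GC trend, lay above it. With 67.1% GC, Jund was above 99.9% of tested genes. Its log2 fold change was 0.23 (standard error 0.10) with all libraries, 0.07 (0.06) after the GC and length correction and 0.00 (0.08) with replicates 1 and 2 alone, where the 95% interval was -0.17 to 0.17. The longest transcripts of Jun, Junb, Jund and Ier2 each consist of 1 exon. Among 172 other tested protein-coding genes whose transcripts all have 1 exon, the median log2 fold change was 0.03.

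**Figure D3:**
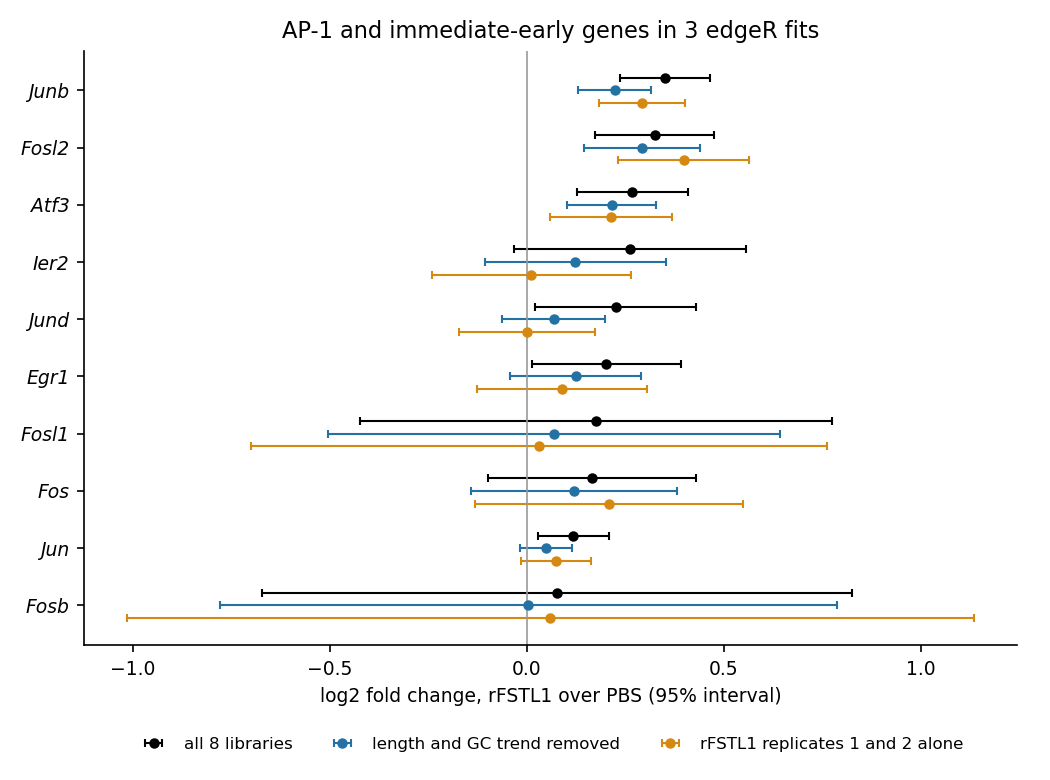
Log2 fold change of rFSTL1 over PBS with its 95% interval (x axis) for the 10 genes (y axis) from edgeR fits on all 8 libraries (black), after correction for GC and length (blue) and with rFSTL1 replicates 1 and 2 alone (orange). The 3 intervals of Junb, Fosl2 and Atf3 lie above 0 in each fit, and those of the other 7 genes take in 0 in the last 2 fits.

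Among the Fos genes, the most abundant one also showed the clearest difference. Fosl2 (ENSMUSG00000029135) encodes Fra-2, a Fos protein without the strong activation domain of c-Fos. It had 37.2, 36.7, 43.4 and 35.0 CPM in PBS replicates 1 to 4 and 50.9, 49.8, 44.3 and 46.5 CPM in rFSTL1 replicates 1 to 4. The groups did not overlap, although PBS replicate 3 and rFSTL1 replicate 3 were close. Within the rFSTL1 group, the libraries without the GC trend (replicates 1 and 2) were the highest. Its log2 fold change was 0.32 (standard error 0.07, 95% interval 0.17 to 0.48), or 1.25-fold. It was 0.29 (0.14 to 0.44) after the GC and length correction and 0.40 (0.23 to 0.56) with replicates 1 and 2 alone. Fosl2 did not pass the call with all libraries and passed it in 6 of 18 alternatives. Fosl2 made up 56.9% ± 2.09 of the summed Fos genes per kilobase under PBS and 59.6% ± 3.3 under rFSTL1 (SD, n = 4), and the groups overlapped.

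Fos itself, Fosl1 and Fosb were low and did not separate the groups. Fos (ENSMUSG00000021250), which encodes c-Fos, the classical early partner of c-Jun, had 6.62, 5.54, 7.35 and 5.98 CPM in PBS replicates 1 to 4 and 6.88, 7.88, 7.22 and 6.72 CPM in rFSTL1 replicates 1 to 4. The ranges overlapped, and the log2 fold change was 0.17 (standard error 0.12), 0.12 (0.13) after the GC and length correction and 0.21 (0.16) with rFSTL1 replicates 1 and 2 alone. Fosl1 (ENSMUSG00000024912), which encodes Fra-1, ranged from 1.46 to 3.09 CPM under PBS and from 1.48 to 3.66 CPM under rFSTL1, on 24.1 to 69.8 estimated counts a library. It was the 1 gene of the 10 whose counts were not whole numbers, in all 8 libraries. In GENCODE M21 an exon of Ccdc85b overlaps it on the opposite strand. Ccdc85b had 11.7 ± 0.493 CPM under PBS and 12.3 ± 0.758 CPM under rFSTL1 (SD, n = 4). Junb, which an exon of Prdx2 overlaps in the same way, had whole counts. Whether Fosl1 shares reads with Ccdc85b was not tested. Fosb (ENSMUSG00000003545), which encodes FosB, had 6 to 15 counts a library, and its 95% interval of -0.67 to 0.83 shows that neither a rise nor a fall of moderate size was detectable at this depth. Its log2 fold change was 0.08, 0.0037 after the correction and 0.06 with replicates 1 and 2 alone, and that of Fosl1 was 0.18, 0.07 and 0.03 in the same fits. The sign for Fosb turned without PBS replicate 1 (-0.00) or PBS replicate 4 (-0.06), and that for Fosl1 without rFSTL1 replicate 3 (-0.05).

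Atf3 (ENSMUSG00000026628) had 96.7, 83.3, 93.9 and 79.0 CPM in PBS replicates 1 to 4 and 109, 96.0, 114 and 107 CPM in rFSTL1 replicates 1 to 4. Of the rFSTL1 libraries, 3 lay above all PBS libraries, and replicate 2 lay just below PBS replicate 1. The log2 fold change was 0.27 (standard error 0.07, 95% interval 0.13 to 0.41), or 1.20-fold. It was 0.22 (0.10 to 0.33) after the GC and length correction and 0.21 (0.06 to 0.37) with replicates 1 and 2 alone, so it moved little with either. Atf3 did not pass the call with all libraries and passed it in 6 of 18 alternatives.

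As with Jund, rFSTL1 replicates 3 and 4 held the highest levels of Egr1 and Ier2. Egr1 (ENSMUSG00000038418) had 21.98, 19.0, 18.2 and 17.5 CPM in PBS replicates 1 to 4 and 19.5, 21.3, 23.7 and 23.5 CPM in rFSTL1 replicates 1 to 4. Only rFSTL1 replicates 3 and 4 exceeded the PBS range. Its log2 fold change was 0.20 (standard error 0.09), 0.12 (0.08) after the GC and length correction and 0.09 (0.10) with replicates 1 and 2 alone. Ier2 (ENSMUSG00000053560) had 15.7, 12.95, 13.7 and 13.4 CPM in PBS replicates 1 to 4 and 15.6, 12.5, 15.9 and 22.4 CPM in rFSTL1 replicates 1 to 4. Replicate 4 was far above the PBS libraries, replicate 3 just above the highest of them, and replicates 1 and 2 below it. Its log2 fold change was 0.26 (standard error 0.14), 0.12 (0.11) after the GC and length correction, 0.08 without rFSTL1 replicate 4 and 0.01 (0.12) with replicates 1 and 2 alone. Over the 10 genes, rFSTL1 replicate 4 was the highest of the 8 libraries for 4 and replicate 3 for 3, while PBS replicate 4 was the lowest for 4.

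The calls varied with the test, and so did the share of all genes that each test called. Under DESeq2, which called 2.06% of its genes, limma voom (4.22%) and edgeR without the low-count filter (0.863%), the called genes among the 10 were Junb, Fosl2 and Atf3. Junb and Fosl2 were called with upper-quartile scaling (0.521% of all genes) and with rFSTL1 replicates 1 and 2 alone (0.314%). Junb and Atf3 were called with a replicate block, without the GC and length correction (0.381%) and with it (0.661%). Junb alone was called after the correction without the block (0.689%), with DESeq2 size factors in edgeR (0.307%) and with library totals as the scale (0.354%). Leaving out PBS replicate 1, 2, 3 or 4 brought the share of all genes called to 0.221%, 0.102%, 0.112% and 0.111%. Fosl2 joined Junb without PBS replicate 3, and none of the 10 was called without PBS replicate 2 or 4. Leaving out rFSTL1 replicate 1, 2, 3 or 4 brought the share to 0.914%, 0.832%, 0.148% and 0.381%. Junb was called in each of these 4 fits, and Atf3 without rFSTL1 replicate 2. Jun, Jund, Fos, Egr1 and Ier2 passed the call in 0 of 18 alternatives, Fosl1 in 0 of the 17 that gave it an adjusted p, and Fosb in 0 of 15.

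Genes that act beside the 10 were then taken from lists written from general knowledge, with counts by edgeR at an adjusted p under 0.05 (Benjamini-Hochberg). Of 11 other bZIP genes of the AP-1 superfamily, 8 were tested and 0 were called. DESeq2 and limma voom also called 0, and 1 had an unadjusted p under 0.05 by edgeR, as did 15.9% of all tested genes. That gene was Maff, which encodes a small Maf protein without an activation domain, with 6.81 ± 1.00 CPM under PBS and 9.08 ± 1.15 CPM under rFSTL1 (SD, n = 4), and its log2 fold change was 0.41 (adjusted p = 0.171 by edgeR), 0.32 after the GC and length correction and 0.43 with rFSTL1 replicates 1 and 2 alone. Mafk and Mafg, which encode other small Maf proteins, and the AP-1 repressor gene Jdp2 had log2 fold changes of 0.09, 0.06 and 0.13 (standard errors 0.05, 0.05 and 0.09). After the correction these were 0.011, 0.0056 and 0.026, and with replicates 1 and 2 alone 0.09, 0.017 and 0.011. The median of the 8 genes was 0.07, 0.02 and 0.05 in the 3 fits. Batf, Batf3 and Maf did not pass the filter, with 2 counts or fewer per library.

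Of 37 other immediate-early genes, 32 were tested and 1 was called higher, Ier3, where 0.326% of all tested genes were called higher. Ier3, which encodes a regulator of cell survival, rose from 35.3 ± 6.46 to 54.7 ± 5.98 CPM (SD, n = 4), and its log2 fold change was 0.63 (adjusted p = 0.0186 by edgeR). It was 0.52 after correction for GC and length and 0.74 with rFSTL1 replicates 1 and 2 alone, and its call was lost without PBS replicate 2 (0.65) or 3 (0.62). Plk2, which encodes a polo-like kinase, Dusp1, which encodes a phosphatase that switches off MAP kinases, and Zfp36, which encodes the mRNA decay factor tristetraprolin, had log2 fold changes of 0.44, 0.54 and 0.20. Their adjusted p-values by edgeR were 0.0993, 0.197 and 0.197. After the correction the 3 differences were 0.43, 0.48 and 0.14, and with replicates 1 and 2 alone 0.55, 0.53 and 0.18. Ier3 was known to be higher when the list was written. By edgeR 9 of the 32 genes had an unadjusted p under 0.05, where 15.9% of all tested genes did. A positive log2 fold change was found in 28 of the 32, against 52% of all tested genes. The median log2 fold change of the 32 genes was 0.13, 0.04 after the GC and length correction and 0.15 with rFSTL1 replicates 1 and 2 alone.

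Upstream of the early genes, 0 of 12 tested factors of the SRF, ternary complex, CREB and MEF2 families were called by edgeR. DESeq2, which called 2.06% of its genes, called 1, and limma voom (4.22%) called 2. By edgeR 3 of the 12 had an unadjusted p under 0.05, where 15.9% of all tested genes did. The median log2 fold change of the 12 was -0.04, 0.01 after the GC and length correction and -0.01 with rFSTL1 replicates 1 and 2 alone. Mef2a had -0.17 (adjusted p = 0.137 by edgeR), Mrtfa 0.20 (0.213 by edgeR), Srf 0.20 (0.271 by edgeR) and Elk3 0.09. After the correction Mef2a, Mrtfa, Srf and Elk3 had -0.09, 0.12, 0.06 and 0.09, and with replicates 1 and 2 alone -0.12, 0.06, 0.03 and 0.08. Srf encodes the factor that binds the CArG box and Mrtfa its actin-regulated coactivator. Of 21 MAP kinase cascade genes, 0 were called by edgeR, DESeq2 or limma voom. By edgeR 5 of the 21 had an unadjusted p under 0.05, where 15.9% of all tested genes did. Map2k1 (MEK1), Mapk8 (JNK1), Map3k7 (TAK1) and Map2k2 (MEK2) had log2 fold changes of 0.11, -0.15, -0.10 and 0.15. After the correction these were 0.08, -0.05, -0.06 and 0.04, and with replicates 1 and 2 alone 0.10, -0.08, -0.05 and 0.01. The median of the 21 was -0.01, -0.02 and 0.0043 in the 3 fits. RNA levels of kinases do not measure their activity.

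Among 7 genes that act on Jun turnover or repress Egr proteins, 0 were called by edgeR. Where 15.9% of all tested genes had an unadjusted p under 0.05 by edgeR, 1 of the 7 did. DESeq2 (2.06% of its genes called) and limma voom (4.22%) also called 1. That gene was Nab1, a co-repressor of Egr factors, with 118 ± 7.64 CPM under PBS and 104 ± 1.04 CPM under rFSTL1 (SD, n = 4), and its log2 fold change was -0.18 (adjusted p = 0.134 by edgeR). It was -0.16 after the correction and -0.17 with replicates 1 and 2 alone. Nab2, which encodes a related co-repressor, had 0.13, 0.03 and 0.03 in the 3 fits. Fbxw7 and Itch, which encode parts of ubiquitin ligases for c-Jun, had -0.10 and -0.06 with all libraries, -0.08 and 0.013 after the correction, and -0.09 and 0.00096 with replicates 1 and 2 alone. The median of the 7 genes was -0.05, 0.01 and -0.04. Of 6 heat shock and chaperone genes tested, 0 were called by edgeR or DESeq2, and 1 was called by limma voom, which called 4.22% of all tested genes. By edgeR 2 of the 6 had an unadjusted p under 0.05, where 15.9% of all tested genes did. Bag3 and Dnajb1 had log2 fold changes of 0.20 and 0.11, and Hspa1b and Hspd1 of -0.38 and -0.10. After the correction the 4 values were 0.12, 0.07, -0.47 and -0.10, and with replicates 1 and 2 alone 0.09, 0.16, -0.25 and -0.0063. The median of the 6 genes was -0.02, 0.01 and 0.08. Hspa1b shares most of its sequence with Hspa1a, so the split of reads between them is uncertain.

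Of 25 genes reported as AP-1 or Egr1 targets, most of which have other regulators too, 17 were tested. By edgeR 3 of the 17 were called higher, Vegfa and Hmox1 among them, where 0.326% of all tested genes were called higher. Vegfa, which encodes an angiogenic factor, rose from 28.6 ± 3.66 to 41.9 ± 1.98 CPM (SD, n = 4), and its log2 fold change was 0.55 (adjusted p = 0.00676 by edgeR), and Hmox1, which encodes haem oxygenase, had 0.37 (adjusted p = 0.00676 by edgeR). The call of Hmox1 was lost without PBS replicate 4 (0.35). After the GC and length correction Vegfa and Hmox1 had 0.52 and 0.29, and with rFSTL1 replicates 1 and 2 alone 0.55 and 0.40. Ccnd1, which encodes cyclin D1, had 0.20 (adjusted p = 0.0673 by edgeR), 0.17 after the correction, where it was called (adjusted p = 0.0348 by edgeR), and 0.20 with replicates 1 and 2 alone. By edgeR 8 of the 17 had an unadjusted p under 0.05, where 15.9% of all tested genes did. A positive log2 fold change was found in 16 of the 17, against 52% of all tested genes. The median of the 17 was 0.17, 0.16 after the correction and 0.14 with replicates 1 and 2 alone, beside 0.01, -0.01 and -0.00 for all tested genes. The whole list was chosen with earlier results of these data known, among them that Vegfa was higher, so its count is no independent evidence. Mmp9, Mmp13, Mmp3, Il1b, Il6, Hbegf, Fn1 and F3 did not pass the filter, with 13 counts or fewer per library.

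**Figure D4:**
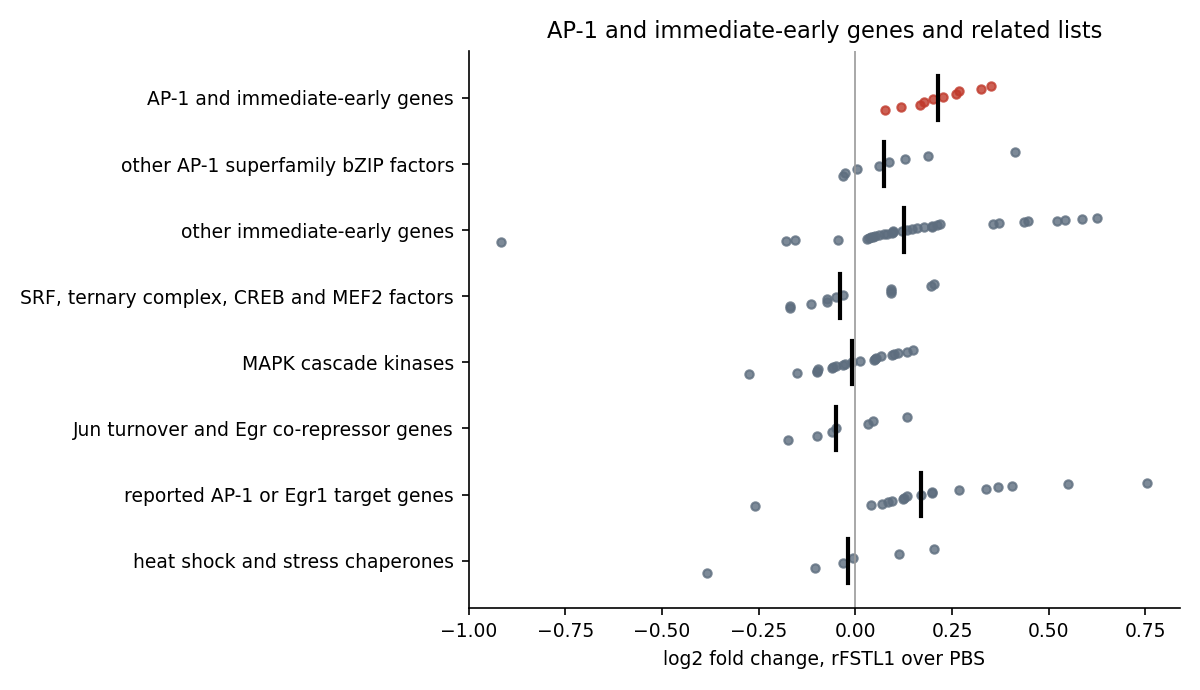
Log2 fold change of rFSTL1 over PBS (x axis) for each tested gene of the 10 AP-1 and immediate-early genes (red) and of 7 related lists (grey), with a black bar at each median. With all libraries the medians run from -0.05 for the Jun turnover and Egr co-repressor genes to 0.17 for the reported targets and 0.21 for the 10 genes. After the GC and length correction these 3 medians were 0.01, 0.16 and 0.12, and with rFSTL1 replicates 1 and 2 alone -0.04, 0.14 and 0.08, below the 0.15 of the other immediate-early genes.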

How the data were processed

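RNA-seq of 8 RAW264.7 libraries was analysed, 4 with PBS and 4 with rFSTL1, grouped by their treatment labels. The authors deposited estimated counts (expected counts) of 22013 Ensembl genes without normalization, of which 12.99% of nonzero values were not whole (tolerance 1e-09). The submitters' processing notes list Bowtie2 2.2.8, HISAT2, StringTie 1.3.1 and DESeq2, with no role for each. The counter, build and annotation are not given in the sources used here. Counts were rounded. edgeR 4.0.16 in R 4.3.3 (filterByExpr with minimum count 10, TMM, glmQLFit, glmQLFTest, Benjamini-Hochberg over 10748 genes, threshold 0.05) was the main test, and standard errors and 95% intervals came from its F statistic. CPM are TMM-scaled. Length and GC came from each gene's longest GENCODE M21 transcript (10719 genes, 99.7%), and trends were fitted per library with splines of 4 degrees of freedom and entered as offsets. DESeq2 1.42.0 and limma 3.58.1 were among the alternatives. Every pair of replicates differed by more than counting noise (lowest chi-square per degree of freedom 3.03).

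The 10 genes and the lists were chosen with earlier results of these data known. From each list, genes called and, up to 4, those with the smallest p are named, except 1 gene that is not reported here.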

Additional observations from a re-analysis of the deposited data

Results flagged for a closer look

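Over 76 groups of 4 libraries examined for a library far from the others, 2 were found, and chance would give about 3.8. Mapk8 had 41.0 CPM in PBS replicate 1, against 46.5 to 46.9 CPM in the other PBS libraries. Nab2 had 46.7 CPM in PBS replicate 3, against 41.7 to 42.4 CPM in the others. None of the 10 AP-1 and immediate-early genes had such a library in either group.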

How the results depend on the processing

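For 37 genes called by edgeR (35 higher, 2 lower), upper-quartile scaling gave 56, edgeR without the filter on low counts 127 (101 higher, 26 lower), limma voom (with library weights) 454 (244 higher, 210 lower) and DESeq2 192 (131 higher, 61 lower). Of the alternatives chosen after seeing the data, correction for GC and length gave 74 (63 higher, 11 lower). Fits without 1 library gave 11 (without PBS replicate 2) to 99 (without rFSTL1 replicate 1). Of the 10 AP-1 and immediate-early genes, 1 was called, against 3 by DESeq2, limma voom and edgeR on all genes (Junb, Fosl2 and Atf3), 2 with upper-quartile scaling, 2 with rFSTL1 replicates 1 and 2 alone, and 0 to 2 without 1 library. Their median log2 fold change of 0.21 was 0.12 with the trend removed, 0.082 with replicates 1 and 2 alone and 0.16 to 0.29 without 1 library, and 3 to 5 genes lay wholly above PBS without 1 library, where 5.35% to 8.23% of all tested genes did.

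The reported targets gave 3 calls by edgeR, which called 0.344% of all tested genes. They gave 6 by DESeq2 (2.06% of its genes), 7 by limma voom (4.22%) and 6 with the trend removed (0.689%). Without 1 library they gave 2 to 4, where 0.102% to 0.914% of tested genes were called. The other immediate-early genes gave 2 by limma voom and 0 to 1 without 1 library. The SRF, CREB and MEF2 list gave 1 by DESeq2, 2 by limma voom and 0 to 1 without 1 library. The Jun turnover list gave 1 by DESeq2 and 1 by limma voom, and the chaperones 1 by limma voom. The log2 fold change of Itch (-0.06) turned to 0.013 with the trend removed, to 0.013 with the replicate block added and to 0.00096 with replicates 1 and 2 alone. That of Fosb turned to -0.0028 without PBS replicate 1 and ranged from -0.057 (without PBS replicate 4) to 0.16, and that of Fosl1 ranged from -0.049 (without rFSTL1 replicate 3) to 0.36. Of 678 fits of the 38 named genes, 641 kept direction and side of the threshold, 26 moved past it and 5 fell short of it. The causes were not tested.

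Same-numbered libraries showed no shared deviation, with correlations of -0.03, 0.01, -0.01 and -0.01. These values cannot show whether the libraries were handled in pairs. With the replicate block, 41 genes and 2 of the 10 (Junb and Atf3) were called. With block and trend removal, 71 genes (61 higher, 10 lower) and 2 of the 10 were called, and their median was 0.12. Fosb, with 6 to 15 counts a library, had the widest 95% interval of the 10 genes.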

Other observations

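Several immediate-early genes with low counts had large differences without a call, and these were picked out after their values were seen. By edgeR with Benjamini-Hochberg adjustment, Myc had a log2 fold change of 0.59 (adjusted p = 0.239), Phlda1 0.52 (adjusted p = 0.316) and Sik1 0.45 (adjusted p = 0.286), with higher means under rFSTL1. Klf4 had -0.92 (adjusted p = 0.287). After the GC and length correction these were 0.53, 0.41, 0.38 and -0.99. With rFSTL1 replicates 1 and 2 alone, Myc and Sik1 had 0.31 and 0.22, Phlda1 0.45 and Klf4 -1.28.

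Among the reported targets, Plau, which encodes urokinase, had a log2 fold change of 0.17 (adjusted p = 0.0979 by edgeR) and Cd83 of -0.26 (adjusted p = 0.115 by edgeR). After correction for GC and length, an alternative chosen after seeing the data, both were called, at 0.16 (adjusted p = 0.0313 by edgeR) and -0.30 (adjusted p = 0.0392 by edgeR). With rFSTL1 replicates 1 and 2 alone, Plau had 0.14 and Cd83 -0.28. Ptgs2, which encodes cyclooxygenase 2, had 0.20 with all libraries, 0.29 after the correction and 0.39 with rFSTL1 replicates 1 and 2 alone.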
